A study of Homo sapiens with 6 samples.

Results

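SGK1, SLC12A2, SLC12A3, SLC12A4, SLC12A7, WNK1, STK39, NEDD4L and SCNN1A are 9 genes of the machinery that moves sodium, potassium and chloride across cell membranes. They were chosen by name as kinases, a ubiquitin ligase, cotransporters and a channel subunit of one control circuit, with their counts and fold changes in the same comparison already known, so their differences between sedanolide and control are given as a description: intervals and the passing of thresholds describe the fit, no p is given for these genes, and none of it is independent evidence of a difference. All 9 were found among the 61541 genes of the deposited count table, and all 9 passed the filter on low counts together with 14102 genes in all. In control cells SGK1 was the most abundant of the 9 per length of transcript, and after sedanolide it was 3.00-fold lower, while SLC12A3 was 4.33-fold lower and SCNN1A 2.17-fold lower. The other 6 had log2 fold changes between −0.37 and 0.22.

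The study exposed luciferases-expressing HepG2 cells to sedanolide, a phthalide of celery, to ask how this compound affects transcription. HepG2 is a human hepatoblastoma line of liver origin, and these cells carry a mouse artificial chromosome vector with the luciferase SLR3 behind antioxidant response elements and a TK promoter and the luciferase ELuc behind the TK promoter alone. The treated group had 3 libraries at 100 μM for 24 h and the control group 3 libraries at 24 h, with polyadenylated RNA sequenced in each. The sedanolide stock was made in DMSO, whereas the labels do not say what the control cells received, and nothing states that the libraries of a group came from separate cultures, so the spread between libraries may be technical.

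In the kidney, these genes form a known circuit of salt reabsorption. WNK1 is a kinase that senses chloride and activates STK39 (also called SPAK), which phosphorylates cotransporters of the SLC12 family: phosphorylation opens the sodium-driven carriers SLC12A2 (NKCC1) and SLC12A3 (NCC), which load chloride into the cell, and closes the potassium-driven carriers SLC12A4 (KCC1) and SLC12A7 (KCC4), which let it out. SGK1 is a kinase whose gene is induced by glucocorticoids and mineralocorticoids. It phosphorylates the ubiquitin ligase NEDD4L, which otherwise removes the epithelial sodium channel, of which SCNN1A is the alpha subunit, from the membrane. In liver cells the SLC12 carriers and WNK kinases serve mainly cell volume, and the RNA measured here says nothing of phosphorylation.

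Libraries held between 16420258 and 26714853 expected counts. The strongest component of variation over all genes took 56.1% of the variance and did not follow the treatment: controls 1 and 2 and sedanolide 3 lay on one side, and control 3 and sedanolide 1 and 2 on the other. The share of mitochondrial genes was 1.43% to 2.15% where control 1 lay and 4.23% to 5.22% where control 3 lay. Differences between treatments within each side are given for SGK1, WNK1, SLC12A2, SLC12A3, SLC12A7 and SCNN1A. They have no test, and each rests on a lone library in the control or the sedanolide group. The levels of whole marker lists in this paragraph are sums per library before TMM normalization (the scaling between libraries applied to all other CPM), so that genes below the filter on low counts are included. All 10 hepatocyte markers were detected, and their summed level was 31800 to 48900 counts per 1000000 (CPM) in controls and 22900 to 40600 CPM after sedanolide, with 9 of 10 log2 fold changes below 0. Of these, TTR (−0.53), FGB (−0.45), ALB (−0.43) and APOA2 (−0.24) were lower in every sedanolide library, with adjusted p of 0.133, 0.226, 0.241 and 0.474 in the edgeR quasi-likelihood fit (Benjamini-Hochberg). Of 9 markers of the distal renal tubule, the site where SLC12A3 is best known, 5 were at 0 in all libraries (UMOD, CALB1, PVALB, TRPV5 and KLK1), and the list summed to 1.31 to 1.42 CPM in controls and 0.21 to 0.798 CPM after sedanolide. Of 10 markers of leukocytes, endothelium and fibroblasts, CD3E, VWF and COL1A2 were at 0, and the list summed to 28.4 to 37.6 CPM in controls and 17.5 to 21.3 CPM after sedanolide, led by PDGFRB at 20.1 ± 4.69 and 7.51 ± 3.35 CPM (adjusted p 0.155 in the same edgeR fit), with −1.0 and −1.40 on the log2 scale within sides. The part of these lists in the results was not tested. The libraries came from the HepG2 line alone. In such bulk libraries, fewer cells expressing a marker and less RNA per cell cannot be told apart. The SLR3 transcript, the treatment's own reporter, went from 16.3 ± 1.73 to 65.9 ± 5.67 CPM (SD, n = 3 each), with a Benjamini-Hochberg adjusted p of 0.00324 in edgeR's quasi-likelihood test, and the ELuc transcript went from 18.6 ± 0.121 to 10.4 ± 2.43 CPM, with an adjusted p of 0.131 in the same edgeR fit.

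Among the kinases, SGK1 (ENSG00000118515; GRCh38 chromosome 6, 134169248 to 134318112, minus strand) had 1472, 2345 and 1692 counts in controls 1 to 3 and 589, 827 and 782 counts in sedanolide 1 to 3. After TMM normalization these were 89.2, 99.3 and 95.6 CPM against 31.7, 31.9 and 31.0 CPM. The groups were far apart and tight within themselves, and the highest sedanolide library was at 31.9 CPM against 89.2 CPM in the lowest control. Group means were 94.7 ± 5.14 and 31.5 ± 0.481 CPM (SD, n = 3), giving a log2 fold change of −1.59 with a standard error (SE) of 0.107 and a 95% interval of −1.84 to −1.34. Within the 2 sides of the main component the difference was −1.60 and −1.59, nearly the same on both. It was past the thresholds used here, a false discovery rate (FDR) of 0.05 and a fold change of 1.5. It did not pass without control 1 (log2 fold change −1.64), without sedanolide 2 (−1.61) or with the replicate number as a block (−1.59). In these fits 0 genes of any kind passed.

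The promoter windows of SGK1 and SLC12A3 are shown because these 2 genes had the lowest log2 fold changes of the 9 and because steroid receptors are known regulators of this circuit. Each is the 250 bases before the RefSeq start (GRCh38.p14), written 5′ to 3′ on the gene's own strand in lower case, with the glucocorticoid receptor half-site TGTTCT in capitals where a search of both strands found it. The SGK1 window is chr6:134318113-134318362 on the minus strand, before the most distal of its annotated starts, and the SLC12A3 window is chr16:56864957-56865206 on the plus strand.
SGK1: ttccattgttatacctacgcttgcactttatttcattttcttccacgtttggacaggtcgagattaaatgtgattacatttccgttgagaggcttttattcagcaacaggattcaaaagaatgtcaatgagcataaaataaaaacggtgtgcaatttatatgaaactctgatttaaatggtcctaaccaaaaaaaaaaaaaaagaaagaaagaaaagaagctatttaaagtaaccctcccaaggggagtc
SLC12A3: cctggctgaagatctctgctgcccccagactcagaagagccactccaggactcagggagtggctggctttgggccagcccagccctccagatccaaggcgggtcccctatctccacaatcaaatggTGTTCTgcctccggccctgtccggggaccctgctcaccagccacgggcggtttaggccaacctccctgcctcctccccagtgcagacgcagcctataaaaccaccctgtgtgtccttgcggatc

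The windows differ in composition: GC content was 33.6% for SGK1 and 62.8% for SLC12A3, around a median of 58% over 27305 promoters. The half-site stands 124 to 119 bases before the SLC12A3 start. It is also present before STK39 and NEDD4L, giving 3 of the 8 genes that have a window, while 12.4% of all promoters hold it. The full palindrome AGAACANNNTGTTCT, which contains the half-site on both strands, was in none of the 8 and in 0.00366% of all promoters, and the antioxidant response element core TGACNNNGC was in none of the 8 and in 11% of all. The letters are a description of these windows alone, and bases before other annotated starts, as those of SGK1, were not searched. SCNN1A had no window in the table used.

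**Figure D1:**
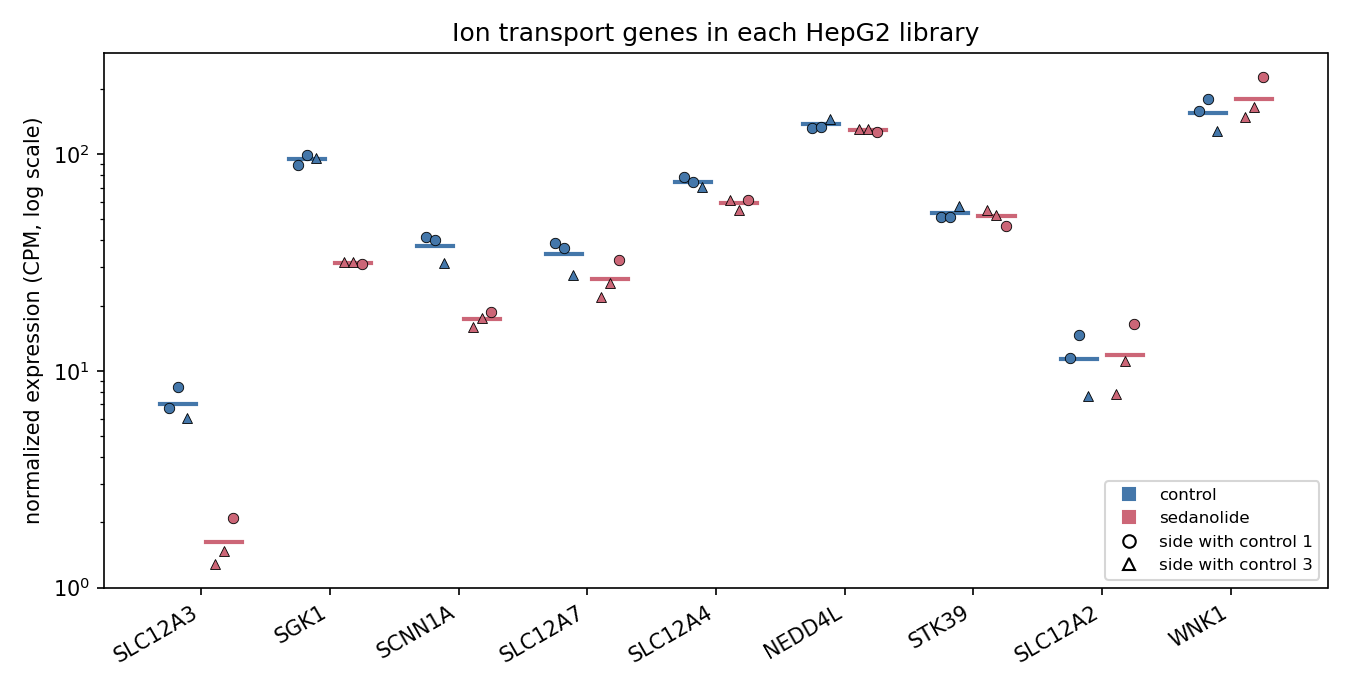
Normalized expression of the 9 genes (CPM, log axis) in each of 3 control (blue) and 3 sedanolide (red) libraries, with group means as bars; circles and triangles mark the 2 sides of the main component of variation. SLC12A3, SGK1 and SCNN1A are separated by treatment. For SLC12A2 all circles lie above all triangles, and for WNK1 this holds within each treatment only.

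WNK1 (chromosome 12, 752579 to 911452, plus strand), at the head of the cascade, was at 158, 179 and 128 CPM in controls and 148, 165 and 226 CPM after sedanolide. The groups overlapped, and the highest value was sedanolide 3. The log2 fold change was 0.22 (SE 0.202, 95% interval −0.26 to 0.69). Libraries on the side of control 1 were higher by 0.46 on the log2 scale than those on the other side, and within sides the difference between treatments was 0.43 and 0.29.

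STK39 (chromosome 2, 167954020 to 168247595, minus strand), the relay that WNK1 activates, was at 51.4, 51.0 and 57.4 CPM in controls and 55.4, 52.4 and 46.8 CPM after sedanolide. The groups overlapped in CPM, with sedanolide 3 below every control, whereas in the authors' TPM they did not (24.7 to 25.9 TPM in controls and 21.6 to 22.8 TPM after sedanolide). The log2 fold change of −0.05 (SE 0.119, interval −0.33 to 0.23) changed sign when control 3 (0.01) or sedanolide 3 (0.02) was left out. Its interval lies within a 1.5-fold change either way. NEDD4L (chromosome 18, 58044226 to 58401540, plus strand), the ligase on which SGK1 acts, was at 132, 134 and 145 CPM in controls and 130, 130 and 126 CPM after sedanolide. All 3 sedanolide libraries were below the controls, but by little, with a log2 fold change of −0.09 (SE 0.106, interval −0.34 to 0.16). Thus the RNA of the relay and of the ligase differed by less than 1.5-fold in cells in which that of SGK1 was 3.00-fold lower.

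Of the inward carriers, SLC12A3 (ENSG00000070915; chromosome 16, 56865207 to 56915850, plus strand) had the fewest reads of the 9 genes, 111, 199 and 107 counts in controls and 24, 38 and 53 counts after sedanolide. These were 6.72, 8.43 and 6.05 CPM against 1.29, 1.47 and 2.10 CPM. Every sedanolide library was below every control, and sedanolide 3 was the highest of its group. The means were 7.07 ± 1.23 and 1.62 ± 0.426 CPM (SD, n = 3), giving a log2 fold change of −2.11 (SE 0.239, interval −2.68 to −1.55), the widest interval among the 3 genes past both thresholds. Within sides the difference was −1.80 and −2.06. The gene did not pass without control 1 (−2.16), control 2 (−1.97), sedanolide 1 (−1.99) or sedanolide 2 (−2.05), or with the replicate block (−2.13). It has no row in the authors' second table.

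SLC12A2 (chromosome 5, 128083766 to 128189677, plus strand), the widely expressed inward carrier, was at 11.5, 14.7 and 7.69 CPM in controls and 7.85, 11.1 and 16.5 CPM after sedanolide. The groups overlapped, and each library on the side of control 1 was above each on the other side. The log2 fold change of 0.07 had an SE of 0.324 and an interval of −0.69 to 0.83, so a 1.5-fold change in either direction was not excluded by its width. It turned to −0.14 without control 3 and to −0.25 without sedanolide 3. The difference between the sides, 0.78 on the log2 scale, was larger than that between treatments, which was 0.35 and 0.28 within sides.

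Neither of the outward carriers was past both thresholds. SLC12A4 (chromosome 16, 67943474 to 67969601, minus strand) was at 78.6, 74.2 and 70.6 CPM in controls and 61.5, 55.2 and 61.4 CPM after sedanolide, without overlap, with a log2 fold change of −0.33 (SE 0.110, interval −0.59 to −0.07). It shares 336 exon bases on the same strand with LCAT, whose counts came to 21.2% of its own and whose log2 fold change was −0.31 (adjusted p 0.457 in the edgeR fit), so reads in the shared bases were divided by estimate. SLC12A7 (chromosome 5, 1050384 to 1112063, minus strand) was at 38.8, 36.9 and 27.8 CPM in controls and 22.0, 25.3 and 32.5 CPM after sedanolide. Its groups overlapped through control 3 and sedanolide 3, and its log2 fold change was −0.37 (SE 0.193, interval −0.83 to 0.08), with −0.22 and −0.23 within sides.

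SCNN1A (ENSG00000111319; chromosome 12, 6346843 to 6377730, minus strand), the channel subunit, was at 41.6, 40.2 and 31.6 CPM in controls and 15.9, 17.5 and 18.7 CPM after sedanolide. The groups did not overlap, and the lowest control was well above the highest sedanolide library. The means were 37.8 ± 5.40 and 17.4 ± 1.43 CPM (SD, n = 3), with a log2 fold change of −1.12 (SE 0.148, interval −1.47 to −0.77), and −1.12 and −0.92 within sides. It was past both thresholds, but not without control 1 (−1.06), control 2 (−1.07), sedanolide 1 (−1.06) or sedanolide 2 (−1.14). Nor did it pass with the replicate block (−1.11) or in the authors' second table.

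SCNN1A overlaps LTBR, a receptor of the tumor necrosis factor family, by 422 exon bases on opposite strands. The counts of LTBR came to 165% of those of SCNN1A, and neither gene's expected count was whole in control 1, at 686.4 for SCNN1A and 738.6 for LTBR. LTBR was at 44 ± 1.40 CPM in controls and 44.4 ± 3.84 CPM after sedanolide, a log2 fold change of 0.01 (interval −0.25 to 0.28). The other subunits of the channel were near or at 0, with 0 counts of SCNN1G and 1 count of SCNN1B over all 6 libraries, and 3 counts was taken as the upper limit behind each 0. SCNN1D had between 3 and 9 counts per library. SCNN1A was thus measured without the beta and gamma partners with which it forms the renal channel.

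**Figure D2:**
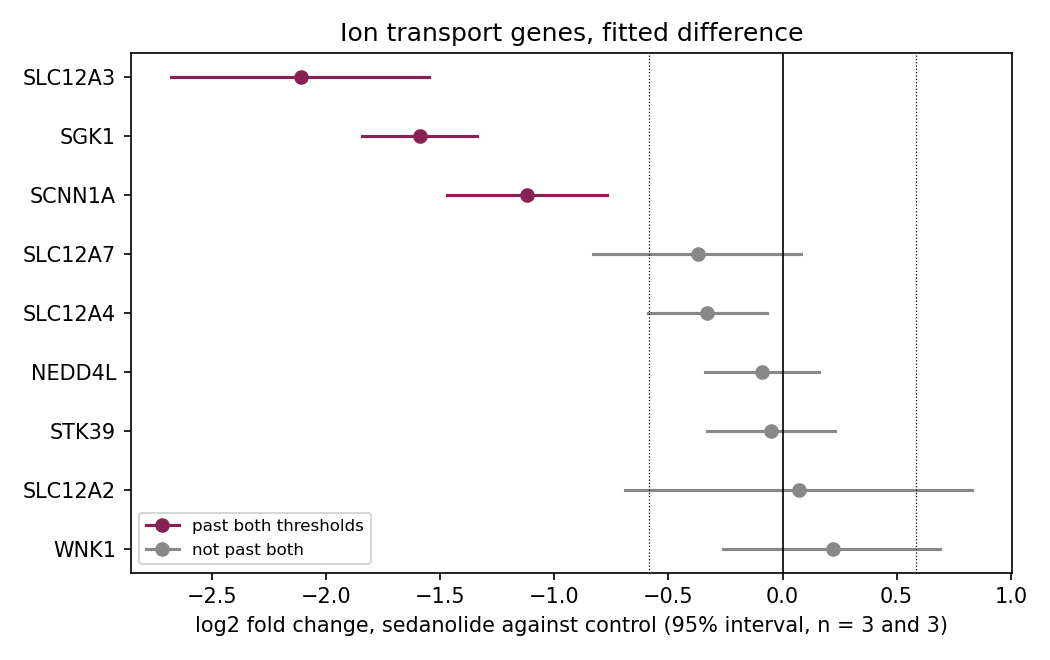
Log2 fold change of each of the 9 genes, sedanolide against control, with 95% intervals from the fit across all genes (n = 3 and 3); dotted lines mark a fold change of 1.5. Only SLC12A3, SGK1 and SCNN1A are past both thresholds, at −2.11, −1.59 and −1.12, and the other 6 lie between −0.37 and 0.22.

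Across the 9 genes, 3 were past both thresholds, all lower, whereas 0.312% of all genes tested were past them and lower and 0.667% in either direction. In 5 of the 9 all sedanolide libraries lay below all controls, against 9.65% of all genes, and 18.3% of all genes lay on one side or the other. The median log2 fold change of the 9 was −0.33, and that of all genes 0.006. Nothing is read from these counts, since the genes were selected on this comparison.

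Levels between genes were compared per length, as CPM per kilobase (kb) of the canonical transcript. In controls SGK1 led at 29.2 CPM per kb, clear of STK39 at 16.3, NEDD4L at 15.9, SLC12A4 at 15.8, WNK1 at 14.3 and SCNN1A at 12.0 CPM per kb, each of which overlapped its neighbor in this order over the 3 libraries. SLC12A7 at 6.51 CPM per kb stood apart below them, and SLC12A2 at 1.64 and SLC12A3 at 1.28 CPM per kb overlapped at the bottom. After sedanolide SGK1 took the fifth place at 9.72 CPM per kb, overlapping neither SLC12A4 above it at 12.6 nor SCNN1A below it at 5.52 CPM per kb. SCNN1A then overlapped SLC12A7 at 5.02, and SLC12A3 at 0.292 CPM per kb no longer overlapped SLC12A2 at 1.72 CPM per kb.

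The authors' TPM, which use their own transcript lengths, were available for 7 of the 9 genes and put NEDD4L higher. SGK1 was at 76.1 ± 7.66 TPM in controls, overlapping NEDD4L at 64.7 TPM, and was followed by WNK1 at 37.1, SLC12A4 at 35.5, STK39 at 25.3, SCNN1A at 25.2 and SLC12A7 at 10.1 TPM. After sedanolide NEDD4L led at 58.3 TPM, and SGK1, at 22.8 ± 1.75 TPM, overlapped SLC12A4 at 24.0 and STK39 at 22.2 TPM. On both scales SGK1 moved from the first place into the middle of the order.

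Relatives of the 9 genes in the same 2 families give the wider picture. SLC12A1, the carrier of the renal thick ascending limb, had 0 counts in all libraries. SLC12A5, SLC12A8 and SLC12A9 had log2 fold changes between −0.08 and 0.04. In controls SLC12A5 was at 0.503 CPM per kb but at 20.8 in the authors' TPM, so its place by level differs between the scales. Among the 8 SLC12 genes tested, 1 was past both thresholds, SLC12A3. WNK2 was at 86.7 ± 10.9 and 84.2 ± 9.11 CPM, and WNK4, which controls SLC12A3 in the kidney, was at 39.8 ± 2.53 CPM in controls and 33.7 ± 3.42 CPM after sedanolide, without overlap, with an adjusted p of 0.495 in the edgeR quasi-likelihood fit (Benjamini-Hochberg). OXSR1, the second relay beside STK39, was at 52.6 ± 14.4 and 48.9 ± 14 CPM (0.08 and 0.14 on the log2 scale within sides), and KLHL3, the adaptor that targets WNK kinases for degradation, had 1 count in each of 2 libraries and 0 in the others. Of the 13 tested genes of the WNK list outside the 9, 0 were past both thresholds.

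**Figure D3:**
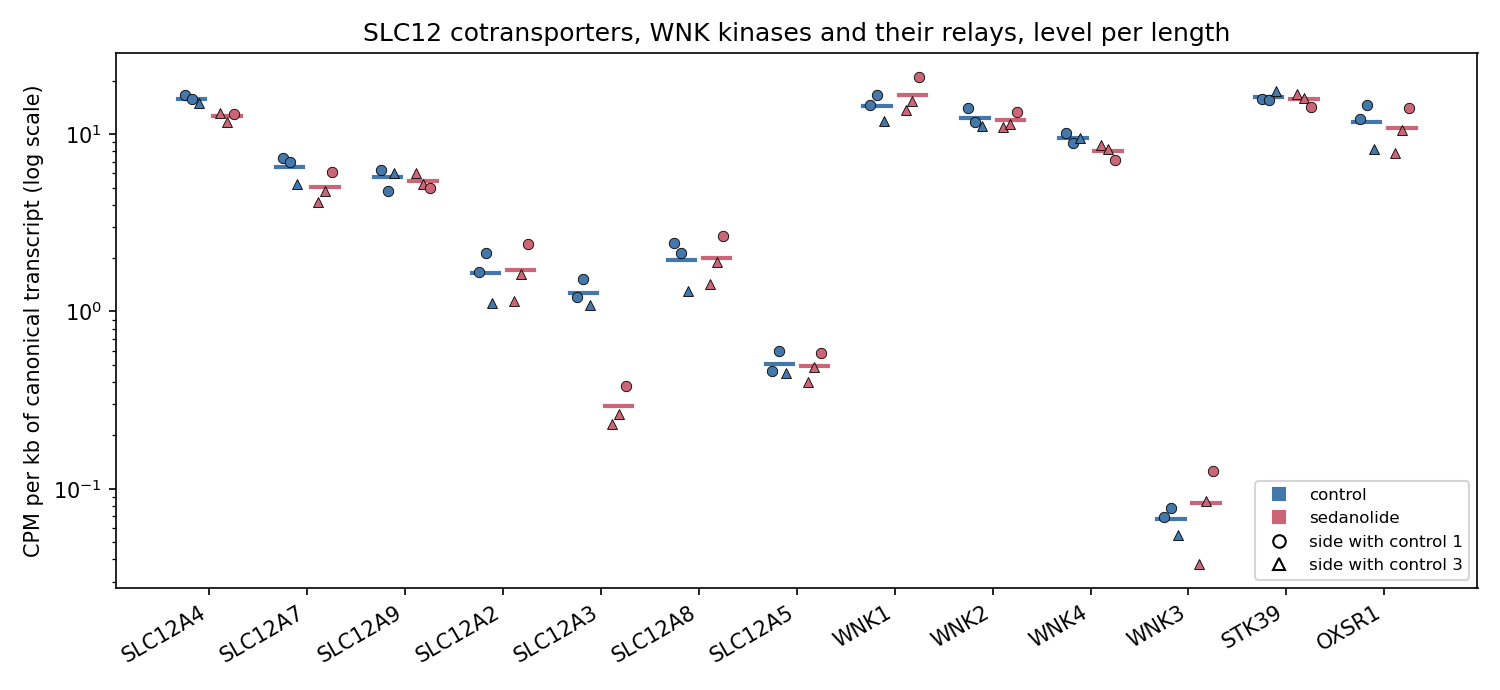
Level per length (CPM per kb of the canonical transcript, log axis) of SLC12 cotransporters, WNK kinases and the relays STK39 and OXSR1 in each library, with group means as bars; blue is control and red is sedanolide, and circles and triangles mark the 2 sides of the main component. SLC12A3 shows the widest gap between group means of the plotted genes, from 1.28 to 0.292 CPM per kb.

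SGK1 was the only one of the SGK kinases with groups that did not overlap. SGK2 was at 32.5 ± 6.33 CPM in controls and 28.9 ± 3.31 CPM after sedanolide, and SGK3 at 12.7 ± 1.85 and 13.7 ± 1.07 CPM. Among the upstream kinases, PDPK1 (PDK1) was at 163 ± 34.2 and 119 ± 44 CPM (−0.11 and −0.42 on the log2 scale within sides) and MTOR at 114 ± 4.32 and 112 ± 5.64 CPM, in both cases with overlap. PRR5, a subunit of the mTORC2 complex that activates SGK1, was higher in all sedanolide libraries, at 16.1 ± 2.88 against 25.3 ± 5.27 CPM (log2 fold change 0.65). NDRG2, an SGK1 substrate, was lower in all of them, at 105 ± 5.70 against 75.3 ± 6.94 CPM (−0.48), while NDRG1, the substrate most used to read SGK1 activity, was at 317 ± 43.7 and 340 ± 52.2 CPM. Neither PRR5 nor NDRG2 passed, with adjusted p of 0.278 and 0.177 in the edgeR quasi-likelihood fit (Benjamini-Hochberg).

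Corticosteroid genes were examined because SGK1, SCNN1A and SLC12A3 are known targets of this signal. The glucocorticoid receptor NR3C1 was at 92.6 ± 6.82 CPM in controls and 80.0 ± 7.10 CPM after sedanolide, and the mineralocorticoid receptor NR3C2 at 2.17 ± 0.222 and 1.79 ± 0.111 CPM, both without overlap and with adjusted p of 0.549 and 0.611 in the edgeR quasi-likelihood fit (Benjamini-Hochberg). The list of these receptors and their targets did not include SGK1, SCNN1A and SLC12A3, and none of its measured targets was past both thresholds. FKBP5, a receptor chaperone and standard glucocorticoid target, was at 45.9, 43.2 and 49.7 CPM in controls and 61.1, 66.0 and 57.1 CPM after sedanolide, whereas TSC22D3 (GILZ) was at 0.865 ± 0.277 and 0.518 ± 0.0366 CPM and PER1 at 5.06 ± 0.331 and 5.02 ± 1.53 CPM. FKBP5 had a log2 fold change of 0.41 and an adjusted p of 0.232 in the edgeR quasi-likelihood fit (Benjamini-Hochberg).

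HSD11B2, the enzyme that inactivates cortisol and so keeps it off the mineralocorticoid receptor, came closest to the FDR threshold among the tested list genes outside the 9. It was at 17.3, 17.9 and 15.5 CPM in controls and 10.2, 10.0 and 10.2 CPM after sedanolide. All sedanolide libraries were below all controls, and their spread was narrow. The log2 fold change was −0.74 (SE 0.120) with an adjusted p of 0.0513 in the edgeR quasi-likelihood fit (Benjamini-Hochberg), and it passed in 4 of 17 other settings. Of the 10 corticosteroid genes tested, 0 were past both thresholds, and the median log2 fold change was −0.11.

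Of the other regulators of the sodium channel, PRSS8 (prostasin), a protease that activates the channel, was at 3.29 ± 0.551 CPM in controls and 1.83 ± 0.574 CPM after sedanolide, and SPINT1, a protease inhibitor of the cell surface, at 2.16 ± 0.410 and 1.01 ± 0.292 CPM. Both were lower in every sedanolide library, with adjusted p of 0.283 and 0.202 in the edgeR quasi-likelihood fit (Benjamini-Hochberg). NEDD4, the ligase most like NEDD4L, was at 46.5 ± 2.57 and 47.4 ± 1.85 CPM.

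Sodium leaves the cell through the sodium-potassium pump. Its small regulators FXYD2 and FXYD3 were lower in every sedanolide library, at 3.23 ± 0.378 against 1.16 ± 0.448 CPM and at 0.866 ± 0.156 against 0.277 ± 0.206 CPM. Their adjusted p were 0.124 and 0.274 in the edgeR quasi-likelihood fit (Benjamini-Hochberg). FXYD2 had 57, 66 and 61 counts in controls and 29, 32 and 17 after sedanolide, and FXYD3 had fewer. FXYD2 passed both thresholds in 5 of 17 other settings, among them the authors' second table, and FXYD3 in 0 of 15. The beta subunits ATP1B1 and ATP1B3 had log2 fold changes of −0.44 and 0.57, with overlap.

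Of the chloride channel genes, CLCN4, an endosomal chloride-proton exchanger, was at 12.4 ± 1.44 CPM in controls and 8.15 ± 0.691 CPM after sedanolide, lower in every sedanolide library (log2 fold change −0.61, adjusted p 0.164 in the edgeR quasi-likelihood fit (Benjamini-Hochberg)). LRRC8A, the obligatory subunit of the volume-regulated anion channel, was at 82.6 ± 9.62 and 76.5 ± 9.48 CPM. Of the sodium-proton exchangers and their partners, NHERF2, a scaffold that links SGK1 to the exchanger SLC9A3, was at 21.8 ± 3.46 and 14.6 ± 1.36 CPM, lower in every sedanolide library (−0.58, adjusted p 0.214 in the same edgeR fit), and SLC9A3 itself was at 6.36 ± 1.31 and 6.21 ± 0.513 CPM.

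Over the 8 lists, 100 genes outside the 9 were examined and 77 were tested. By edgeR's quasi-likelihood test 0 were past both thresholds, 13 had an unadjusted p under 0.05, and DESeq2 called 4, among them CLCN4, FXYD2 and HSD11B2. Over all 14102 genes tested, 1679 had an unadjusted p under 0.05. In 14 of the 77 all sedanolide libraries were below all controls and in 4 above, where 9.65% of all genes were below and 18.3% on one side or the other. The median log2 fold change of the 77 was −0.03.

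**Figure D4:**
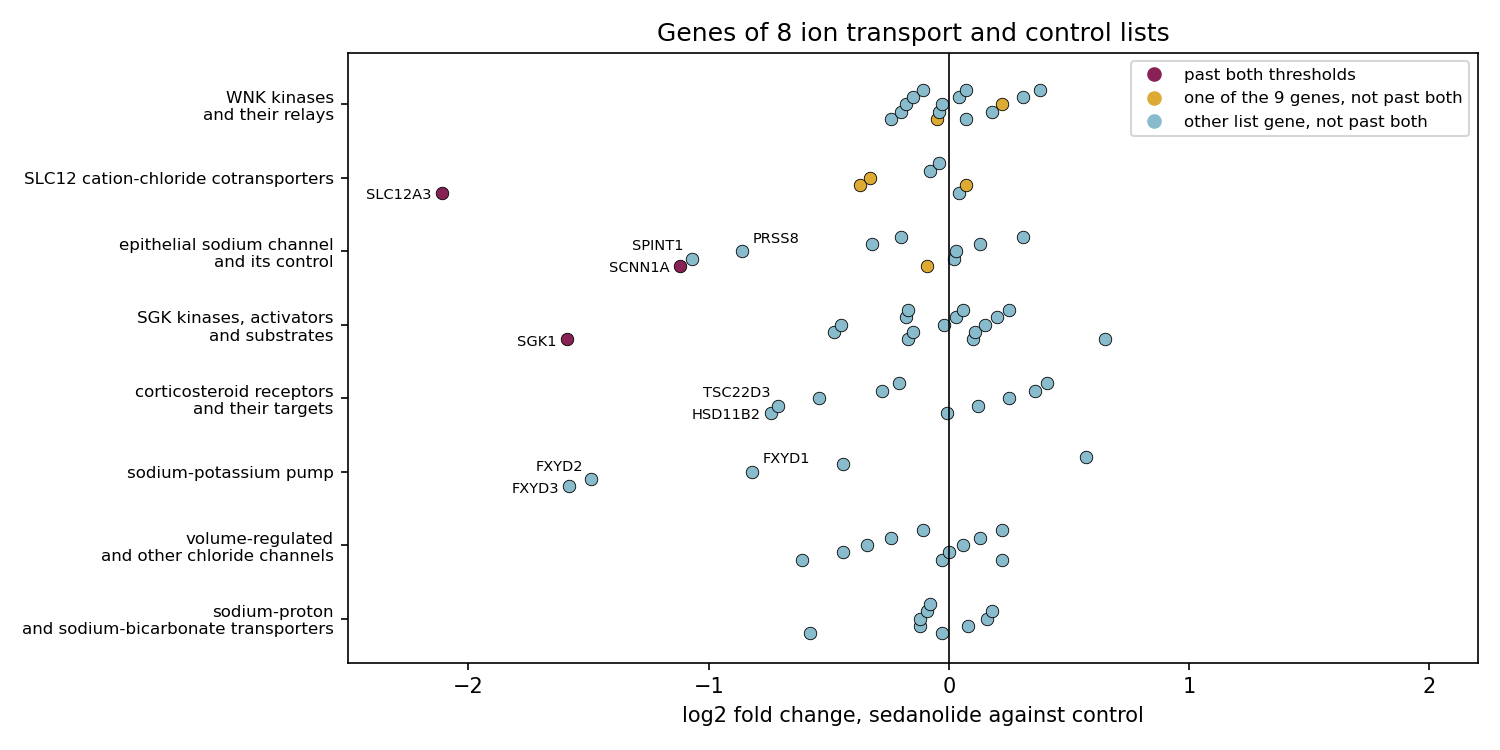
Log2 fold change, sedanolide against control, of tested genes of 8 lists of ion transport and its control, 1 dot per gene reported and 1 row per list, with dots spread vertically for legibility and names given beyond 0.7 in either direction. Of the plotted genes only SLC12A3, SCNN1A and SGK1 are past both thresholds, and HSD11B2 lies at −0.74.

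By correlation of log2 CPM over the 6 libraries, among 12776 genes, those most like SGK1 were LGI4 (Pearson's r 0.996), COQ10A (0.9953) and SLC22A9 (0.9946), of which SLC22A9 is an organic anion transporter of the liver. LGI4 was at 15.8, 15.8 and 16.6 CPM in controls and 8.76, 8.30 and 8.56 CPM after sedanolide. The most like SLC12A3 were PBXIP1 (0.9976), WASL-DT (0.9972) and FMO5 (0.9968), the last a flavin monooxygenase of the liver at 67.7, 76.0 and 61.4 CPM in controls and 24.1, 29.2 and 33.7 CPM after sedanolide. Genes chosen in this way share the separation of the groups by construction.

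**Figure D5:**
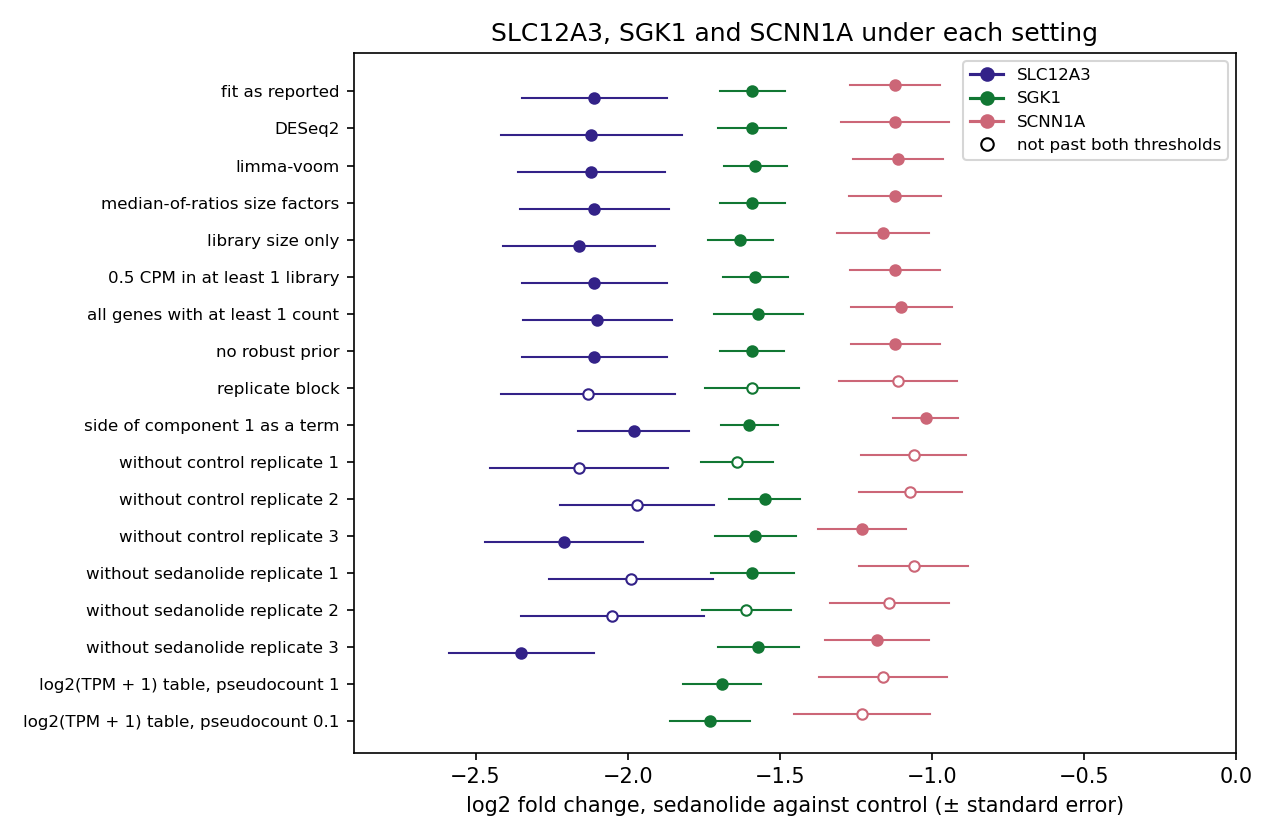
Log2 fold change (± standard error) of SLC12A3, SGK1 and SCNN1A, sedanolide against control, in the reported fit and under each other setting; filled dots are past both thresholds and open dots are not. All dots lie left of 0, from −2.35 to −1.97 for SLC12A3, from −1.73 to −1.55 for SGK1 and from −1.23 to −1.02 for SCNN1A, and SLC12A3 has no value in the log2(TPM + 1) table.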

How the data were processed

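RNA-seq was analyzed in 3 sedanolide and 3 control libraries. Per the labels and the study's methods, mRNA was captured, directional libraries were sequenced as paired-end reads, and reads were checked with FastQC, trimmed with Trimmomatic, aligned to GRCh38 with STAR and quantified with RSEM; versions and annotation are not given in the sources used here. The authors deposited expected counts from RSEM (16420258 to 26714853 per library), in which reads shared between genes are divided by estimate. A second deposited table holds the authors' log2(TPM + 1) for 11006 rows, filtered by a rule not given in the sources used here.

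Counts were rounded and fitted with the treatment as the only term in edgeR 4.0.16 (R 4.3.3) after filterByExpr and TMM, by the robust quasi-likelihood test with Benjamini-Hochberg adjustment over all rows tested, with thresholds of 0.05 for the FDR and 1.5 for the fold change. The authors used DESeq2 at these thresholds, and DESeq2 1.42.0 was an alternative, as was limma 3.58.1 on the log2 table. The procedure was tested on simulated data. CPM are TMM-normalized and errors are SD over libraries. The p-values set a difference against the spread between libraries, moderated across genes, and cover no other source of error. Names and positions came from GENCODE 44 (61369 genes matched), and promoters from RefSeq (8 of 9 genes matched).

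The 9 genes, the lists and the tests were chosen with earlier results of these data known. Named beyond the 9 were list genes at an unadjusted p under 0.05 without overlap of groups, at most 4 per list, and the 3 genes most correlated with SGK1 and with SLC12A3 at a mean of at least 1 CPM. Relatives and partners of the 9 outside this rule were named for their roles after their values were seen. A few list genes are left unnamed and unplotted, although every fit and every count includes them.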

Additional observations from a re-analysis of the deposited data

How the results depend on the processing

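In the reported fit and all other settings tested SGK1, SLC12A3 and SCNN1A were lower after sedanolide, and they passed both thresholds in 14 of 17, 10 of 15 and 10 of 17 other settings. Of the 9 genes, 3 passed in the reported fit, 0 to 3 when one library was left out, 0 with the replicate block, and 1 in the log2(TPM + 1) table with either pseudocount, where 7 of the 9 have a row. Of all genes 94 passed in the reported fit, 326 with DESeq2, 157 when all genes with at least 1 count were tested, 379 with the side of the main component as a term, 60 in the log2(TPM + 1) table with a pseudocount of 1, and 0 to 135 when one library was left out. No gene passed without control 1 or without sedanolide 2, where 1065 and 887 had an unadjusted p under 0.05 in edgeR, and none with the replicate block, where 770 did. Same-numbered libraries did not deviate together (correlations −0.133, −0.295 and −0.73). Each same-numbered pair lay on opposite sides of the main component, so these values cannot decide whether the numbers pair them. Of the 77 list genes 0 passed in the reported fit, 4 with DESeq2, 4 with the side term (NHERF2, FXYD2, HSD11B2 and FXYD1), and 1 each with library size alone, with all genes and without the robust prior. In the log2(TPM + 1) table list genes were not counted, but FXYD2 passed there with either pseudocount. The log2 fold change of STK39 ranged from −0.11 to 0.02 and that of SLC12A2 from −0.25 to 0.31 when one library was left out. The causes were not tested.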
